A study of Homo sapiens with 12 samples.

Results

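The 8 genes of the muscle acetylcholine receptor and the neuromuscular junction described here encode the receptor subunits CHRNA1, CHRNB1, CHRND, CHRNG and CHRNE, the synapse organizer agrin (AGRN), the receptor tyrosine kinase MUSK and the receptor-clustering protein RAPSN. They were chosen by their gene symbols on the array, which carries 12 probes for them among 41000 gene probes for 30238 gene names: 3 for AGRN, 2 each for CHRNB1 and MUSK, and 1 for each of the other genes. All were measured in Rh30, a cell line from an alveolar rhabdomyosarcoma, a tumor of cells committed to skeletal muscle that carries the fusion gene PAX3-FKHR (PAX3-FOXO1). On 12 two-color Agilent arrays, RNA was compared between parental Rh30 cells (WT), a control clone with a non-targeting shRNA (CON) and a clone with an shRNA against the fusion (KD1). Each of the 3 comparisons, KD1 vs CON, KD1 vs WT and WT vs CON, had 2 biological replicates, each hybridized as a dye-swap pair.

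All 3 cultures carry the fusion gene, and the shRNA of KD1 lowers but does not delete its transcript. CON and KD1 are each 1 stable clone with an shRNA vector, selected and grown with puromycin at 1 μg/mL. WT was untransfected and grown without the drug. KD1 vs CON thus sets apart 2 clones as well as the knockdown. WT vs CON sets apart clone, drug, vector and non-targeting shRNA, without an shRNA against the fusion. KD1 vs WT sets apart clone, drug, vector and knockdown. The factors within each comparison cannot be told apart. RNA was taken 24 h after plating. The 12 arrays hold 6 RNA extracts, 1 per culture and replicate, each on 4 arrays, so the comparisons share extracts. Values are log2 ratios of the first culture over the second (KD1 over CON, for example), and a mean is over the 2 replicates after averaging each dye-swap pair. The cultures were bulk samples, in which fewer cells expressing a gene and less RNA per cell cannot be told apart.

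In skeletal muscle, motor neurons release acetylcholine onto a pentameric receptor channel of α1, β1, δ and ε subunits. Before innervation the γ subunit takes the place of ε, so that CHRNG marks the fetal and CHRNE the adult receptor. Agrin from the nerve binds LRP4 and activates MuSK, and rapsyn then gathers receptors under the nerve terminal. Myogenic factors such as MYOD1 and myogenin act on E-box motifs of the receptor genes, and ETS factors of the GABP type act on the N-box, a motif known from genes expressed under the synapse.

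The probes are 60 bases long, and the values below rest on them. Their accessions all matched the same symbols in the RefSeq table. For the genes the comparisons turn on, the fetal γ and adult ε subunits, the main α subunit, the clustering protein, the kinase and agrin (1 of the probes for each of the last), the probe sequences as deposited were as follows, with only the first 30 bases given for CHRNE.
CHRNG probe: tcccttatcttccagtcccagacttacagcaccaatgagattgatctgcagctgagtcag
CHRNE probe, first 30 bases: ccctgctgatcaatctgcagtttgtgaact
CHRNA1 probe: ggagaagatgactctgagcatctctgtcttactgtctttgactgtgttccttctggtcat
RAPSN probe: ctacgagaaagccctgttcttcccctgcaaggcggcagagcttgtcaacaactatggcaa
MUSK probe: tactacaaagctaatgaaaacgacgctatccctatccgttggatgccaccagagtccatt
AGRN probe: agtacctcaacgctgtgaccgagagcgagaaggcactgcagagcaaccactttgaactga
On build NCBI36 these map to chr2:233114470-233115422 for CHRNG and chr1:977034-979030 for AGRN, both wider than a probe because the match crosses an intron, and to chr17:4742659-4742718 for CHRNE, chr2:175323083-175323142 for CHRNA1, chr11:47420881-47420940 for RAPSN and chr9:112602742-112602801 for MUSK. The probe of CHRND, at chr2:233108371-233108430, lies 6.04 kb from that of CHRNG.

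RefSeq promoter sequences (GRCh38.p14) were on hand for 5 of the 8 genes, CHRNA1, CHRNB1, CHRND, CHRNE and MUSK. All 5 hold the E-box CANNTG, which reads the same on both strands, in the 250 bases before the transcript start, as do 61.8% of the 35116 promoters in the table. The N-box CCGGAA, searched on both strands, is in the windows of CHRND and CHRNE, and in 14.5% of all promoters. No match of one motif overlapped a match of the other. The windows of CHRND and CHRNE, which hold both motifs, and of CHRNA1, which holds 3 E-boxes and no N-box, are shown with E-box and N-box matches in capitals.
CHRND, chr2:232525910-232526159, plus strand: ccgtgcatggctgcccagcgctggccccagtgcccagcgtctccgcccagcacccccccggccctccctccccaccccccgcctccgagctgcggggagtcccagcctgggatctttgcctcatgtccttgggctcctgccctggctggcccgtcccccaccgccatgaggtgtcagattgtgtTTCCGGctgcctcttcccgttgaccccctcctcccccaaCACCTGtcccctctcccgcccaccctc
CHRNE, chr17:4903099-4903348, minus strand: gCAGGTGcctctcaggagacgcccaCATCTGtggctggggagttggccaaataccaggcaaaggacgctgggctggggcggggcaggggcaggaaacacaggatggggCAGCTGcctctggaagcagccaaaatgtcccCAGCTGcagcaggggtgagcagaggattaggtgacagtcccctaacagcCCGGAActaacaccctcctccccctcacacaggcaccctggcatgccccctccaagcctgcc
CHRNA1, chr2:174764473-174764722, minus strand: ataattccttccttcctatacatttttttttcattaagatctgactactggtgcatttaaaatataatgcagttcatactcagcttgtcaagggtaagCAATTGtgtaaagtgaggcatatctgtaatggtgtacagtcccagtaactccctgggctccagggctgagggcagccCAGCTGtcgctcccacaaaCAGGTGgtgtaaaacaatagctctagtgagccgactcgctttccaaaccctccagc
CHRNE holds 4 E-boxes and an N-box that begins at position -62 from the start. The N-box of CHRND begins at -66 and its single E-box at -27. CHRNB1 holds 4 E-boxes and MUSK 3, with no N-box in either window. A match is a description of these letters and was not tested for binding.

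Between 64.4% and 73.6% of gene spots were well above background per channel, and no spot was saturated. The brightest PAX3 probe averaged -0.42 on the log2 scale for KD1 over CON and -0.39 over WT, and the brightest FOXO1 probe -0.42 and -0.60, none past the limma threshold, and these probes do not separate the fusion from its parent genes. All 6 markers of rhabdomyosarcoma listed for this check (DES, MYOD1, MYOG, FGFR4, NCAM1 and CDH15) were well above background on all 8 arrays of each culture, against 2 or 3 of 5 epithelial, 2 of 4 leukocyte, 2 or 3 of 4 endothelial and 2 of 5 Schwann and neural markers. None of these other markers that was tested was called by limma, and the lowest adjusted p was that of KRT18, with a mean of -1.14 for KD1 over WT (adjusted p = 0.052). One dye-swap pair stood apart: in replicate 2 of KD1 vs WT its arrays differed by a median of 0.39 log2 units, and 13.0% of 21870 probes differed by more than 1, whereas in the other 5 pairs the median was 0.15 to 0.19 and at most 0.48% did. The WT extract of replicate 2 also stood apart, in epithelial markers that were in part not tested. EPCAM, an epithelial adhesion molecule, was well above background on all 4 arrays of that extract and on no array of the other 5, at least 10.1-fold above CON and 12.7-fold above KD1 of the same replicate against the background limit. KRT19, a keratin of epithelia, had log2 ratios for WT over CON of 0.011 in replicate 1 and 3.0 in replicate 2. CDH1 was well above background on 2 arrays of that extract and on none of the others. The summed signal of the epithelial list was 2278 and 3447 in WT, 1632 and 1857 in CON and 1606 and 1892 in KD1. Every replicate 2 value of WT below comes from this extract, the replicate 1 value is the value without it, and its part in the results was not tested. The KD1 extract of replicate 2 was highest in VWF, an endothelial marker, at 9.35 log2 units. VWF was at 6.89 in KD1 replicate 1 and at 5.66 to 6.32 in WT and CON. The summed endothelial signal was 847 and 1804 in KD1, 1155 and 1190 in CON and 717 and 861 in WT. That of the rhabdomyosarcoma list was 118454 and 181273 in KD1, 113309 and 136709 in CON and 118976 and 110577 in WT. Replicate 2 values of KD1 all come from that extract, whose part was not tested. WT was compared with CON on a single slide. Both replicates of KD1 were on separate slides, so the replicate values of a KD1 comparison are also its values within each slide.

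All 12 probes were flagged well above background in all 24 of their channel readings, so by this flag each of the 8 genes had signal in every culture. Some markers of other cell types met the same flag, as given above. For CHRNE, neither channel passed the negative-control limit of the test on 1 array of KD1 vs CON. No member probe passed the threshold of 0.05 in any comparison (limma with Benjamini-Hochberg adjustment over all probes tested). For KD1 over CON 0 of 11 tested probes were called, beside 1.79% of the 21937 probes tested, and 4 had an unadjusted p under 0.05 (3 of AGRN and that of RAPSN), beside 17.2% of all probes. For KD1 over WT 0 of 12 were called, beside 1.05% of 24884, with 2 under 0.05 unadjusted (CHRND and RAPSN), beside 17.2%. For WT over CON 0 of 12 were called, beside 1.37% of 26595, with 4 under 0.05 unadjusted (3 of AGRN and that of CHRNG), beside 16.5%. With 2 replicates the 95% intervals were wide, and they are given with each gene.

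**Figure D1:**
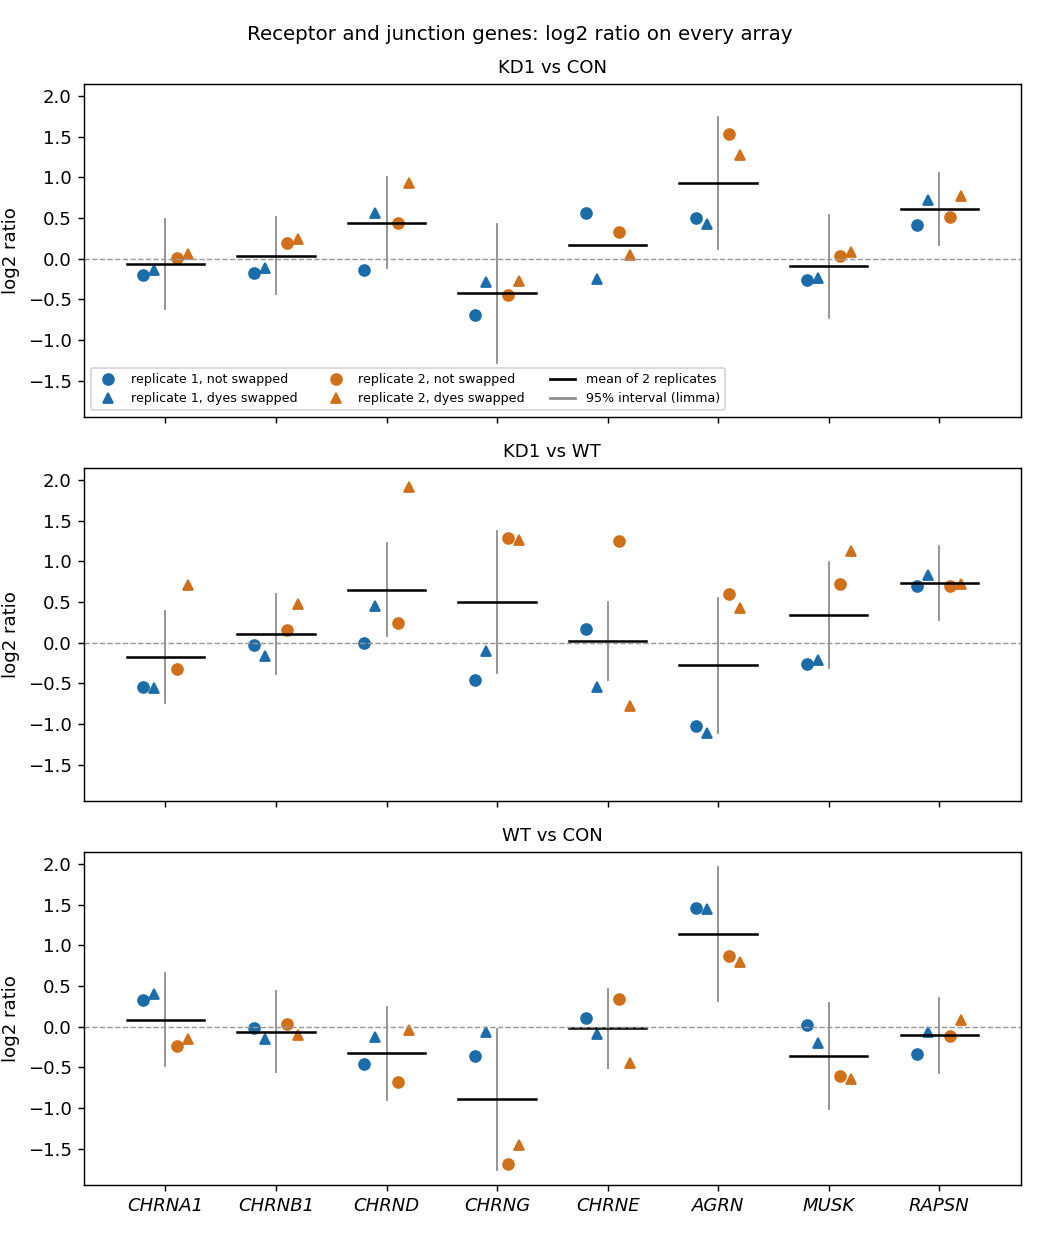
Log2 ratio (vertical axis) of the brightest probe of each gene on every array, in 1 panel per comparison. Circles are arrays without and triangles arrays with swapped dyes, colors are replicates, black bars are means of the 2 replicates and gray lines 95% intervals from limma; RAPSN lies above 0 on all 8 KD1 arrays and AGRN above 0 on all 8 arrays that hold CON.

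Among the receptor subunits, the α1 subunit CHRNA1, which carries the main acetylcholine binding surface, had the mean ratio of KD1 over CON nearest to 0 among the genes with a single probe tested there. Its log2 ratio for KD1 over CON was -0.20 and -0.14 on the arrays of replicate 1 and 0.0074 and 0.063 on those of replicate 2, with a mean of -0.067 ± 0.14 (SD, n = 2) and a 95% interval of -0.62 to 0.48. For KD1 over WT the replicates had opposite signs, -0.55 and 0.20, and both arrays of replicate 2 also disagreed, at -0.32 and 0.71. They were 0.37 and -0.19 for WT over CON. The groups therefore overlapped, and no culture had a higher CHRNA1 level in both of its extracts than another.

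CHRNB1, the β1 subunit of both the fetal and the adult receptor, was close to level across the cultures by both of its probes. The brighter probe gave mean log2 ratios of 0.038 ± 0.26 for KD1 over CON, 0.11 ± 0.29 for KD1 over WT and -0.061 ± 0.033 for WT over CON (SD, n = 2), and the other gave 0.039, 0.13 and -0.12. The widest of these 6 intervals, that of the second probe in WT vs CON, ran from -0.65 to 0.42. The extracts of the 3 cultures overlapped for both probes.

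CHRND, the δ subunit, had its highest mean level in KD1 and its lowest in WT. On the arrays of KD1 vs WT its log2 ratio was -0.0068 and 0.45 in replicate 1 and 0.25 and 1.92 in replicate 2, a mean of 0.65 ± 0.61 (SD, n = 2; limma adjusted p = 0.24). The array at 1.92 belongs to the dye-swap pair that stood apart, and the mean of replicate 1 alone was 0.22. Against CON the array values were -0.14, 0.56, 0.44 and 0.93, with a mean of 0.44 (adjusted p = 0.40). Of WT vs CON all 4 arrays were below 0, from -0.68 to -0.044, with a mean of -0.33 (adjusted p = 0.56), and 23.3% of all tested probes were below 0 on all 4 arrays of that comparison. In extract levels, both WT extracts (9.55 and 9.70 log2 units) lay below both CON extracts (9.86 and 9.94), and the KD1 extracts were at 9.94 and 10.84. The share of all probes with such a separation of cultures was not counted, here or for the genes below. In all 6 dye-swap pairs the array with swapped dyes gave the higher log2 ratio of this probe, by 0.71 on average. The array without the swap minus that with it ran from -1.67 to -0.33, and the largest gap was in the pair that stood apart. A dye-swap mean removes a dye offset only as far as both arrays share it, and the cause of the gap was not tested.

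**Figure D2:**
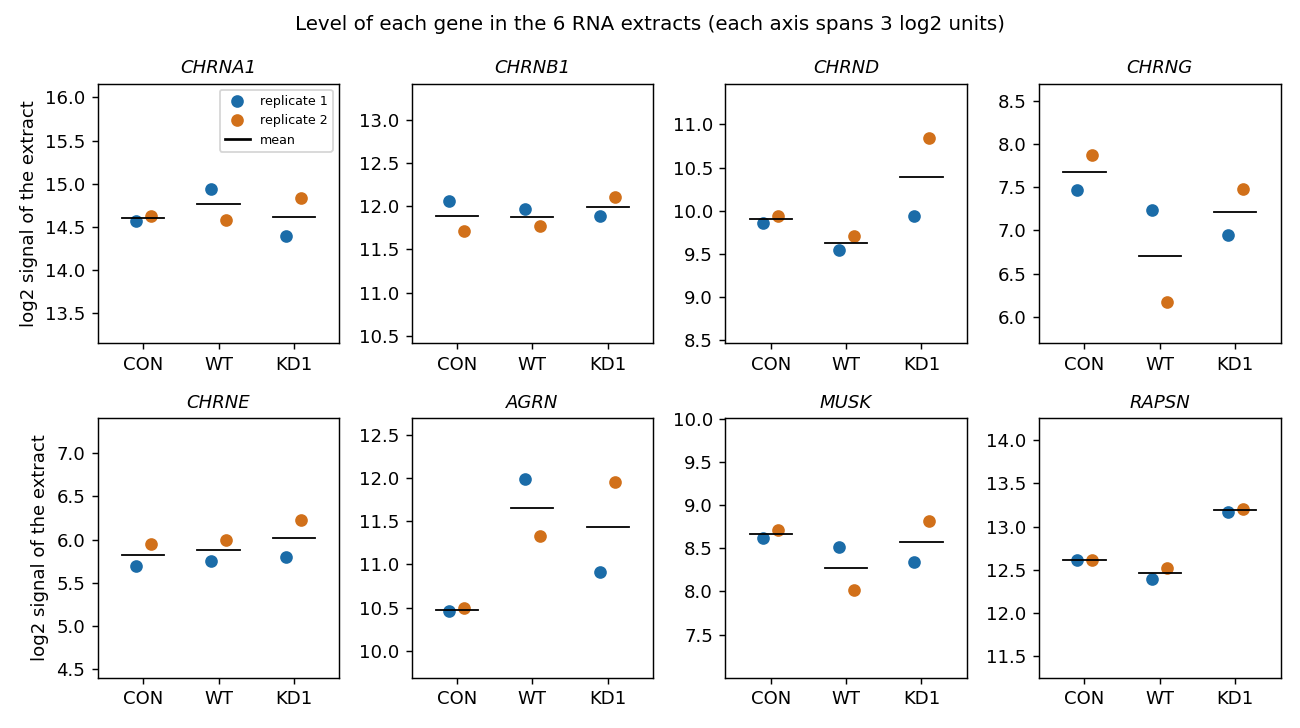
Log2 signal of the brightest probe of each gene in the 6 RNA extracts, by culture, where each point is the mean of an extract over its 4 arrays and each black bar the mean of a culture. Every axis spans the same range of log2 units around its own gene, and levels of different genes are not comparable; both KD1 extracts of RAPSN (13.17 and 13.21) lie above the other 4 extracts, and both CON extracts of AGRN (10.46 and 10.49) lie below them.

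CHRNG, the fetal γ subunit, had its highest mean level in CON. For WT over CON its log2 ratio was -0.36 and -0.059 on the arrays of replicate 1 and -1.68 and -1.46 on those of replicate 2. All 4 arrays thus placed CHRNG lower in WT, yet replicate 2 gave a far larger difference than replicate 1, and the mean of -0.89 ± 0.96 (SD, n = 2) did not pass the test (limma adjusted p = 0.29; 95% interval -1.75 to -0.025). The 4 arrays of KD1 vs CON were also below 0, at -0.69, -0.29, -0.45 and -0.28, with a mean of -0.42 ± 0.089 (adjusted p = 0.62), beside 26.3% of all tested probes with the same pattern. With normexp background correction and loess in place of the processed signals the means were -0.36 for WT over CON, -0.20 for KD1 over CON and 0.13 for KD1 over WT. Between KD1 and WT the replicates had opposite signs, -0.28 and 1.28, with a mean of 0.50 (adjusted p = 0.54). In extract levels CHRNG stood at 7.47 and 7.88 log2 units in CON, 6.95 and 7.48 in KD1 and 7.23 and 6.17 in WT. The WT extracts lay below both CON extracts, and KD1 overlapped with each of the other cultures. The lowest of the 6, WT replicate 2, is the extract in which EPCAM and KRT19 stood apart, and their part in the CHRNG ratio was not tested. Without it CHRNG was at -0.21 for WT over CON and -0.28 for KD1 over WT.

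CHRNE, the adult ε subunit, differed little between the cultures in the dye-swap means. Its mean log2 ratio was 0.17 ± 0.018 for KD1 over CON, 0.024 ± 0.30 for KD1 over WT and -0.019 ± 0.046 for WT over CON (SD, n = 2), and the extracts of all 3 cultures overlapped. It was not tested in KD1 vs CON, because on 1 of the 4 arrays neither channel passed the 99th percentile of the negative controls. The intervals were -0.45 to 0.50 for KD1 over WT and -0.50 to 0.46 for WT over CON. Single arrays of this probe scattered far more than its means, from -0.77 to 1.25 in KD1 vs WT. Both of these extremes are from replicate 2, the dye-swap pair that stood apart. In all 6 dye-swap pairs the array without the swap gave the higher ratio, by 0.80 log2 units on average, the reverse of CHRND. This gap ran from 0.20 to 2.02, the largest again in the pair that stood apart.

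The fetal and adult subunits were set against each other as the log2 ratio of CHRNG minus that of CHRNE. For KD1 over CON this difference was -0.65 and -0.55 in the 2 replicates, with a mean of -0.60 ± 0.071 (SD, n = 2), and all 4 arrays were below 0, from -1.25 to -0.045. The array at -1.25 is the one on which CHRNE did not pass the negative-control limit, so that its CHRNE value is uncertain. With normexp the mean for KD1 over CON was -0.25. For WT over CON it was -0.22 and -1.52, with a mean of -0.87 ± 0.92, and 3 of 4 arrays were below 0. For KD1 over WT it was -0.092 and 1.04, with a mean of 0.48 ± 0.80, and 3 of 4 arrays were above 0. Replicate 2 there is the dye-swap pair that stood apart, on which CHRNE read 1.25 and -0.77. The replicate 2 values with WT, 1.04 and -1.52, also rest on the extract in which EPCAM stood apart. The difference was thus below 0 in both replicates of both comparisons against CON, but its SD was larger than its mean between WT and CON, and its sign turned between replicates of KD1 vs WT. Both comparisons against CON share the CON extracts. With 2 replicates an exact sign-flip test cannot give a p below 0.5, and no other test was made of this difference.

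**Figure D3:**
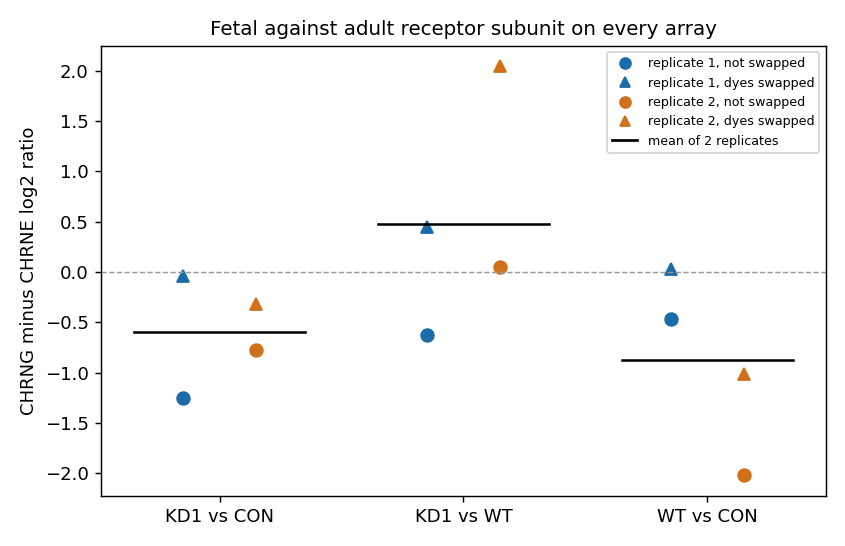
Log2 ratio of CHRNG minus that of CHRNE (vertical axis) on every array of the 3 comparisons. Symbols and colors mark dye orientation and replicate and black bars the means of 2 replicates; all 4 arrays of KD1 vs CON lie below 0, and the arrays of KD1 vs WT run from -0.63 to 2.04.

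CHRND and CHRNG, neighbors on chromosome 2, had unlike ratios. The log2 ratio of KD1 over CON was lower for CHRNG than for CHRND on all 4 arrays, by a mean of -0.87 ± 0.25 (SD, n = 2). The difference was -0.50 in replicate 1 and 0.20 in replicate 2 of KD1 vs WT, and for WT over CON 0.084 and -1.21. The 51 genes around CHRNG had running medians of 0.17 for KD1 over CON and 0.057 for WT over CON, and CHRNG ranked 49 from the highest in both.

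AGRN, a heparan sulfate proteoglycan whose neural form induces receptor clusters, had the largest mean ratios of the 8 genes in both comparisons against CON. By the brightest probe, the arrays of WT vs CON read 1.46 and 1.44 in replicate 1 and 0.87 and 0.80 in replicate 2, a mean of 1.14 ± 0.44 (SD, n = 2) or 2.21-fold. Those of KD1 vs CON read 0.50 and 0.43 in replicate 1 and 1.53 and 1.28 in replicate 2, a mean of 0.94 ± 0.67 or 1.91-fold. The other probes gave 1.11 and 1.05 for WT over CON and 0.89 and 0.85 for KD1 over CON, so all 3 probes placed AGRN lowest in CON on all 8 arrays that hold it. Among all probes tested in both comparisons, 10.5% showed CON lower on all 8 arrays. The limma adjusted p was 0.15 to 0.17 over the 3 probes for WT over CON and 0.20 to 0.23 for KD1 over CON. When WT vs CON was fitted on its own spread alone, all 3 probes passed, with limma adjusted p of 0.040, 0.044 and 0.047. That fit called 946 of 26595 probes, beside 365 in the main fit. KD1 vs CON on its own spread gave 0.12 for each of the 3 probes, which did not pass. The 3 probes read the same gene and are not separate results. With normexp the probe shown above gave 0.64 for WT over CON and 0.43 for KD1 over CON, against 1.05 and 0.85.

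Between WT and KD1 the order of AGRN turned with the replicate. All 3 probes were below 0 on both arrays of replicate 1, with replicate values of -1.06, -0.97 and -0.71, and above 0 on both arrays of replicate 2, with 0.51, 0.51 and 0.47. The extracts at 11.99 in WT and 10.91 in KD1 in replicate 1, and at 11.33 and 11.96 in replicate 2, overlapped, whereas the CON extracts stood at 10.46 and 10.49.

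AGRN lies near the end of the short arm of chromosome 1, and many of its neighbors also had higher values in WT than in CON. The running median of the genes tested around it was 0.32 in WT vs CON, above 0.24, the 95th percentile of such medians along all chromosomes, and 41 of the 51 genes had ratios above 0. By replicate that median was 0.32 and 0.37. The median for KD1 over CON was 0.22 over 43 genes, where the 95th percentile was 0.31. AGRN itself ranked 3 from the highest in both. The DVL1 probe lies 279.5 kb away, and SAMD11, which together with DVL1 was called in this window in WT vs CON, lies on the other side. The part of these neighbors in the AGRN ratio was not tested.

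**Figure D4:**
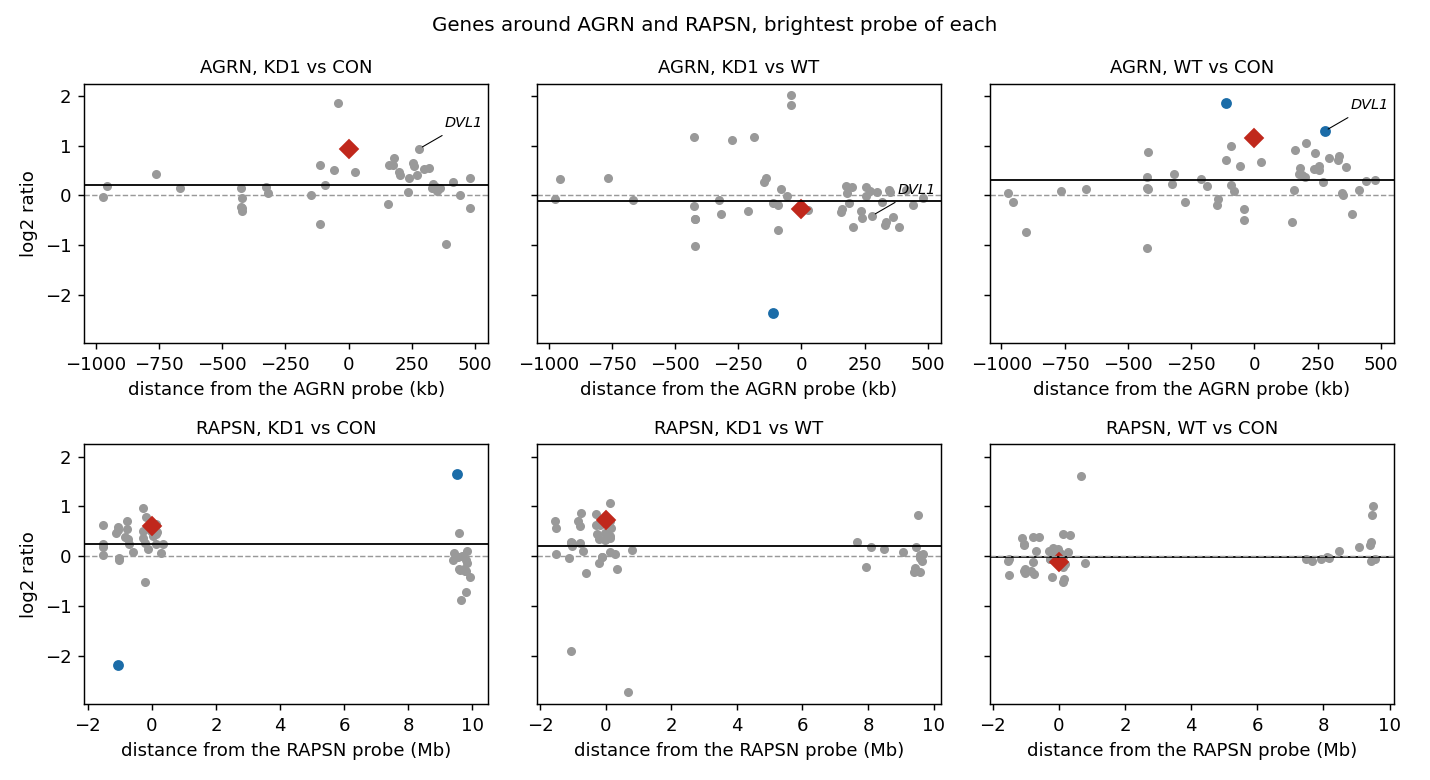
Log2 ratios (vertical axis) of the genes nearest to AGRN (upper row, distance in kb) and RAPSN (lower row, distance in Mb) in each comparison, by the brightest probe of each gene. The red diamond is AGRN or RAPSN, blue points passed the limma threshold, and the black line is the median of the window, which for AGRN in WT vs CON is 0.32 and for RAPSN in the KD1 comparisons 0.25 and 0.21.

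MUSK, the kinase that agrin activates through LRP4, followed the direction of CHRNG in each replicate of WT vs CON and KD1 vs WT, which share the WT extracts. In replicate 2 of KD1 vs CON it did not, with CHRNG at -0.36 and both MUSK probes above 0. Its brighter probe read 0.018 and -0.19 on the arrays of WT vs CON replicate 1 and -0.61 and -0.64 on those of replicate 2, a mean of -0.36 ± 0.38 (SD, n = 2; adjusted p = 0.58), and its other probe had a mean of -0.46 (adjusted p = 0.50), or -0.21 with normexp. The replicate values for KD1 over WT were -0.24 and 0.92 by the first probe and -0.27 and 0.93 by the second, with means of 0.34 and 0.33, or 0.19 and 0.18 with normexp. The replicate 2 values rest on the WT extract in which EPCAM and KRT19 stood apart, as for CHRNG. For KD1 over CON the replicate values were -0.25 and 0.063 by the first probe, and -0.40 and 0.13 by the second. Both probes ordered the cultures WT, KD1, CON, with only WT and CON not overlapping. MUSK lies on chromosome 9, and the 51 genes around it had running medians of -0.045 for KD1 over CON and -0.11 for KD1 over WT.

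RAPSN, which links receptors to the cytoskeleton, was the one gene of the 8 with the same direction on every KD1 array. Its log2 ratio for KD1 over CON was 0.42 and 0.72 in replicate 1 and 0.52 and 0.77 in replicate 2, a mean of 0.61 ± 0.053 (SD, n = 2) or 1.52-fold. For KD1 over WT it was 0.69 and 0.83 in replicate 1 and 0.69 and 0.72 in replicate 2, a mean of 0.73 ± 0.041 or 1.66-fold. Of all probes tested in both comparisons, 7.87% were higher in KD1 on all 8 arrays. The limma adjusted p was 0.17 against CON and 0.13 against WT, with 95% intervals of 0.17 to 1.05 and 0.28 to 1.19. In a limma fit of all arrays with a dye effect per slide, RAPSN passed in both, with adjusted p of 0.045 and 0.026. That fit took the 12 arrays as its values, with both arrays of a dye-swap pair as a random block, although they hold only 6 extracts. This fit did not model the extracts that comparisons share. It called 975 of 21937 probes against CON and 1000 of 24884 against WT, beside 393 and 261 in the main fit. The 4 arrays of WT vs CON read -0.33, -0.069, -0.11 and 0.082, with a mean of -0.11 (adjusted p = 0.84).

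RAPSN had the smallest spread between replicate extracts of the 8 genes. They stood at 13.17 and 13.21 log2 units in KD1, 12.61 and 12.61 in CON and 12.39 and 12.52 in WT, with no overlap between any of the cultures. The share of all probes without such overlap was not counted. In the direct ratio, WT over CON was -0.20 in replicate 1 and only -0.014 in replicate 2. The dye-swap pair that stood apart in KD1 vs WT gave a RAPSN ratio of 0.70, beside 0.76 in replicate 1. The genes around RAPSN on chromosome 11 had running medians of 0.25 for KD1 over CON and 0.21 for KD1 over WT, and of -0.025 for WT over CON. The 95th percentile of such medians was 0.31 and 0.20 for the KD1 comparisons. In KD1 vs CON the window held no tested gene between NUP160, 336.0 kb from the RAPSN probe, and TNKS1BP1, 9403.7 kb from it. Most genes up to NUP160 had ratios above 0 and most beyond it below 0. The median of the window pools both stretches, and none was taken for each. RAPSN ranked 9 and 5 from the highest of its 51 genes, and the part of these neighbors in its ratio was not tested.

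The selection criteria of the study, a mean of at least 2-fold in both KD1 comparisons with 1 direction on all 8 arrays, were met by 0 of the 12 member probes, beside 1.38% of the 21882 probes tested. Replicates disagreed in sign for 10 of 12 member probes between KD1 and WT, beside 43.6% of all tested probes, for 5 of 11 between KD1 and CON, beside 28.3%, and for 2 of 12 between WT and CON, beside 39.5%. The 10 in KD1 vs WT are all probes other than those of RAPSN and CHRND. The ratio of KD1 over CON differed from the sum of the other two ratios of its replicate by a median of 0.062 log2 units over the member probes in replicate 1 and 0.051 in replicate 2.

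Over the 6 extracts, the levels of MUSK and CHRNG were the most alike of the 21 pairs among the 7 genes tested in all comparisons, with a Pearson r of 0.94, followed by CHRND and RAPSN at 0.78 and CHRNA1 and AGRN at 0.75. The lowest was -0.29 between CHRNA1 and RAPSN. Among 15705 other genes, those most like CHRND were VEGFA, ETV5 and TNNC2 (r of 0.997 each), those most like CHRNG were SNPH, NDFIP1 and TST (0.97 to 0.99), and those most like AGRN included ITGA3 and M6PR (0.997 and 0.995). For CHRNA1 they were TMEM49, GAD1 and MSTP2 (0.990 to 0.995), for CHRNB1 GAL3ST4, POLR2G and MAPK14 (0.94 to 0.99), for RAPSN AK091942 and TBC1D12 among them (0.996 and 0.994), and for MUSK LOC145783 and UNQ1887 among them (0.98). These are descriptions over 6 extracts that share arrays, and high values are common among so many genes.

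Other genes of the junction were read from lists by the brightest probe. Of 22 genes of agrin, MuSK and neuregulin signaling, 16 were tested for KD1 over CON and 20 in each other comparison, and 2 were called, DVL1 and ERBB4, both higher in WT than in CON, where 0.826% of all genes tested were called higher. DVL1, a Wnt pathway adaptor that binds MuSK, had log2 ratios of 1.29 and 1.30 (adjusted p = 0.031), and ERBB4, a neuregulin receptor, of 1.34 and 1.99 (adjusted p = 0.025). ERBB4 was well above background on only 2 of the 8 CON arrays, against all 8 of WT, so the size of its ratio is uncertain, and with 3 residual degrees of freedom its adjusted p was 0.051. The median of the list was -0.036 in WT vs CON, beside -0.030 for all genes tested.

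Of 22 structural genes of the synapse and its basal lamina, 1 was called. NID2, a basal lamina nidogen, was lower in KD1 than in WT, with log2 ratios of -3.29 and -3.16 (adjusted p = 0.043), where 0.835% of all genes tested were called lower, and it was well above background on 1 of 8 KD1 arrays and 7 of 8 WT arrays. The size of this ratio is uncertain, and with 3 residual degrees of freedom its adjusted p was 0.11. Its arrays read -3.96 and -2.61 in replicate 1, but -0.60 and -5.73 in the dye-swap pair of replicate 2 that stood apart. For WT over CON, where it was not tested, the replicate values were 2.91 and 0.013, and for KD1 over CON -0.95 and 0.16, so that in replicate 2 the value of 0.16 stood against a sum of the other two ratios of -3.15.

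Of 19 transcription factors that act on receptor genes, 16 were tested in each comparison and 1 was called. MYOG, which encodes myogenin, was lower in WT than in CON, with log2 ratios of -1.96 and -1.49, a mean of -1.73 ± 0.33 (SD, n = 2; adjusted p = 0.019), where 0.659% of all genes tested were called lower. KD1 over CON gave -1.35 and -0.92 (adjusted p = 0.051) and KD1 over WT 0.74 and 0.46. CHRNG and both MUSK probes also had their highest mean level in CON and their lowest in WT. The other members did not: CHRNB1, CHRND and RAPSN were highest in KD1, and CHRNA1, CHRNE and AGRN were lowest in CON. A link of MYOG with any of them was not tested. Without the WT extract of replicate 2, where EPCAM stood apart, the ratios were -1.96 for MYOG, 1.29 for DVL1 and 1.34 for ERBB4 in WT vs CON and -3.29 for NID2 in KD1 vs WT, and none of these 4 passed (limma adjusted p of 0.11 to 0.13 with 1 residual degree of freedom). The list median in KD1 vs CON was -0.25, beside -0.015 for all genes.

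None of the neuronal nicotinic subunits tested was called (5 of 11 tested in KD1 vs CON and 7 in the other comparisons), nor any muscarinic receptor (1 of 5 and 3). Among the neuronal subunits tested in both KD1 comparisons CHRNA5 had the largest ratio, with a mean of -0.72 ± 0.30 in KD1 vs WT (adjusted p = 0.20), and CHRNA10 was at -0.58 there. CHRNB3, not tested for KD1 over CON, had a mean of -0.85 for WT over CON (adjusted p = 0.097). The muscarinic receptor CHRM3 was at 0.47 for KD1 over WT (adjusted p = 0.39) and at -0.58 for WT over CON (adjusted p = 0.31). Of 11 genes listed for receptor assembly and turnover, 10 were on the array and none was called. The ubiquitin ligase FBXO32 had replicate values of 0.94 and 4.11 in KD1 vs WT (adjusted p = 0.13), TRIM63, a ubiquitin ligase not tested for KD1 over CON, of 1.81 and 5.02 in KD1 vs WT (adjusted p = 0.091), and TMEM35 of 1.20 and 2.33 in KD1 vs CON (adjusted p = 0.21).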

How the data were processed

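Linear intensity values of both dyes were deposited for each array. Per the file headers, spots were read with Agilent Feature Extraction 10.5.1.1 by the authors, and the processed signals are background-subtracted and lowess-normalized within the array. The deposited log10 ratios of red over green were compared with the ratios used here. The deposited series table holds log2 ratios of the same arrays with the dye-swap signs already turned and was used as an alternative. All of its per-sample columns were matched to an array.

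Spots flagged as outliers (95 to 188 per array) were left out, spots of a probe were averaged, and log2 ratios of the processed signals were averaged within each dye-swap pair. Limma 3.58.1 (R 4.3.3) was fitted to 6 replicate means, 1 coefficient for each comparison, with the residual degrees of freedom set to 2, below the 3 that the fit gives, since the 3 comparisons of a replicate share 3 extracts. The p-values measure the spread between 2 replicates, pooled over the 3 comparisons and moderated by limma across the probes tested. Those of KD1 vs CON therefore also rest on the spread of the WT extracts. On the spread of KD1 vs CON alone, limma gave adjusted p of 0.13 for CHRNG and 0.083 for RAPSN, and called no member probe. A probe was tested where its signal passed the 99th percentile of 153 negative controls in either channel on each array compared; the Benjamini-Hochberg threshold was 0.05. Tests were also run on simulated data with independent extracts and the same noise on every array. Here CON and KD1 extracts were correlated and a dye-swap pair stood apart, so that run does not vouch for the p-values.

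Extract levels are means over 4 arrays of log2 signals after loess within and Aquantile between arrays. Running medians cover 51 genes, 25 tested genes on each side, or fewer near a chromosome end. Same-numbered extracts were hybridized together, and the deviations from the culture means correlated by 0.54 for CON and KD1, -0.021 for CON and WT and -0.072 for KD1 and WT. Precision is limited by the 2 extracts per culture. The genes named are all members, list genes called in at least 1 comparison (otherwise the 2 with the largest ratio among those tested in both KD1 comparisons) and, per member, the 3 genes of most similar level, of which those with only a probe name are left out. SAMD11, KRT18, KRT19, EPCAM, CDH1, VWF, CHRNB3, TRIM63 and the comparison of CHRND with CHRNG were taken up after their values were seen. Members and lists were chosen with earlier results of these data known. Further tools were Python 3.11.15 with scipy 1.17.1, pandas 2.3.3, numpy 2.4.6 and, for plots, matplotlib 3.10.9.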

Additional observations from a re-analysis of the deposited data

How the results depend on the processing

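No alternative called a member probe except a dye effect per slide (RAPSN, 1 probe in both KD1 comparisons, at log2 ratios of 0.61 and 0.73) and the own spread of WT vs CON (the 3 AGRN probes, at 1.14, 1.11 and 1.05). The number of probes called over the whole array, 393 for KD1 over CON, 261 for KD1 over WT and 365 for WT over CON, depended more on the settings. With a replicate block on extract values it was 161, 107 and 131, and without the block, on separate channels, 202, 126 and 114; the block called no member probe. Normexp with loess gave 26, 1 and 2, median centring 261, 138 and 182, and a dye effect per slide 975, 1000 and 1049. Without a filter 254 probes were called in KD1 vs CON and 200 in WT vs CON. With the residual degrees of freedom as the fit gives them the count was 151 for KD1 over WT and 233 for WT over CON, and on its own spread 946 in WT vs CON. Leaving out 1 replicate gave 9 to 16, 38 to 59 and 0 to 1. Without the WT extract of replicate 2, a setting chosen after seeing the data, 388, 36 and 5 probes were called and 0 member probes. Under normexp the criteria for KD1 were met by 96 probes against 302, and CHRNG minus CHRNE in KD1 vs CON was -0.25 against -0.60. For these changes the cause was not tested.

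Of 350 member values under settings other than leaving out a replicate, 8 changed sign, all of them small. For KD1 over CON these were the second CHRNB1 probe at -0.0075 (normexp) and CHRNA1 at 0.013 (no block). For KD1 over WT CHRNE was -0.030 (median centring). For WT over CON CHRNE was 0.00034 (normexp), 0.057 (median centring), 0.038 (replicate block) and 0.056 (no block), and CHRNA1 -0.023 (median centring). Leaving out a replicate turned 17 of 70 values. The ranges for KD1 over CON were -0.17 to 0.035 for CHRNA1, -0.14 to 0.22 and -0.21 to 0.28 for CHRNB1, and -0.25 to 0.063 and -0.40 to 0.13 for MUSK. For KD1 over WT they were -0.55 to 0.20 for CHRNA1, -0.094 to 0.31 and -0.18 to 0.44 for CHRNB1, -0.28 to 1.28 for CHRNG, -0.19 to 0.24 for CHRNE, -0.24 to 0.92 and -0.27 to 0.93 for MUSK, and -1.06 to 0.51, -0.97 to 0.51 and -0.71 to 0.47 for AGRN. For WT over CON they were -0.19 to 0.37 for CHRNA1 and -0.051 to 0.014 for CHRNE.

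CHRNE missed the negative-control limit on 1 array, and its signal over background limits what its ratios show. The 2 replicates limit all comparisons.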
